A study of Homo sapiens with 5 samples.

Results

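Many human genes lie head to head with a neighbour on the opposite strand, or carry an antisense transcript that starts close to their own start, so that a single stretch of guanine-rich DNA can serve 2 genes. The windows described here were picked by the overlap of windows on opposite strands alone, so not every pair need be of that kind. The study lists 1303 gene windows of 4000 bp on GRCh37 for G-quadruplex (G4) sites. The paper calls these G4s specific to prostate cancer, after comparing the C4-2 peaks with known profiles of HepG2 and K562 cells. Other G4 sites of C4-2 are not covered here. Of the 1303 windows, 476 windows (36.5%) overlapped by at least 1 bp another listed window on the opposite strand with a different gene name. They formed 278 pairs in 207 loci, and the other 827 windows were used for comparison. G4s were mapped by BG4 ChIP-seq, in which the BG4 antibody, which binds folded G4s, pulls down cross-linked chromatin fragments that are then sequenced, in 4 biological replicates of C4-2. This established cell line was derived from a human prostate cancer and no longer needs androgen to grow. All 4 samples belong to 1 condition, for which the labels name no treatment or genetic change, and an input sample was not analysed here because it has no peak list. The 4 peak lists held between 4427 peaks (replicate 4) and 8036 peaks (replicate 1), and since they carry no counts of reads, the sequencing depth behind them is unknown.

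G4s form where runs of guanines on the same strand stack into layers of guanine tetrads, and they are frequent in promoters, where the DNA is guanine-rich and often free of nucleosomes. In a bidirectional promoter, the genes of both strands start from a shared stretch that is open in both directions, and an antisense transcript can start inside the gene that it runs against. A ChIP peak has no strand, so a peak that lies in both windows of a pair cannot be assigned to either gene. The fold enrichment given below is the ratio of the signal at a peak's summit to the local background, a summit is the base at which the peak is highest, and a window's centre lies 2000 bp from either end.

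The promoters below are shown because the pairs that hold them turn up again in the values: KLF2 and TSC1 had a peak shared with their partner's window in all 4 replicates, CDKN2A in 3, ASH1L in 2, and GAS6 with its partner GAS6-AS2 in 1. Each is the RefSeq promoter on GRCh38.p14, read 5′ to 3′ on the gene's strand from 250 bases before the start to 50 bases from it on, 300 bases in all. Where the table gave several starts, the start was taken whose distance to the partner's start was closest to the distance of the window centres. Capitals mark the G4 motif, 4 runs of at least 3 G with 1 to 7 bases of any kind between them. The same motif on the other strand is marked too, written here as runs of C. Matches on a strand were taken from the left without overlap. A further match that overlaps a marked one was therefore neither counted nor put in capitals.

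KLF2, chr19:16324576-16324875, plus strand: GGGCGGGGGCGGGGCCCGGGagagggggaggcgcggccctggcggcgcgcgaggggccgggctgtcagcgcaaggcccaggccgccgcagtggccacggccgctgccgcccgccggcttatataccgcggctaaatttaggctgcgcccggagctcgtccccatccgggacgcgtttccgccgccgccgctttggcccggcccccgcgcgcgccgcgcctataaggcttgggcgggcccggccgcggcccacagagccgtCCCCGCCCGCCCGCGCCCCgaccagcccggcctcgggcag

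TSC1, chr9:132944567-132944866, minus strand: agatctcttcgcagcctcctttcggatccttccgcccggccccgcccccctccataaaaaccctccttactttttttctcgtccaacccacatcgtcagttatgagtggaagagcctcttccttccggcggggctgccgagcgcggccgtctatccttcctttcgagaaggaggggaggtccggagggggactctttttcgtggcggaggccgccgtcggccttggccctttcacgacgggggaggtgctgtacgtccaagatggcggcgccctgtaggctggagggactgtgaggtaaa

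CDKN2A, chr9:21995275-21995574, minus strand: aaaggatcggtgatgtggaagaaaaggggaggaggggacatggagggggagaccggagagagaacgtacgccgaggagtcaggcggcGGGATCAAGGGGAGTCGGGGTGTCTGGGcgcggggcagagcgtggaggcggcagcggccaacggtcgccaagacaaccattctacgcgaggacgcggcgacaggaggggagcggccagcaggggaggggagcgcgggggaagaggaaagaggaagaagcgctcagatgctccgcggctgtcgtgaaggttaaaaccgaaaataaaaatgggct

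ASH1L, chr1:155562754-155563053, minus strand: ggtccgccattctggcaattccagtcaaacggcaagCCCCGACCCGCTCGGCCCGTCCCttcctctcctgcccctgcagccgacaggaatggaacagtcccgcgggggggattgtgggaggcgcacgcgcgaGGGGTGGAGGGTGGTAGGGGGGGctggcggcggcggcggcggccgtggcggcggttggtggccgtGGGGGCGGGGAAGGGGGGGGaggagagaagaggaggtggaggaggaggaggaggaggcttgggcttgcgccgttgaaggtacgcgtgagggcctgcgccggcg

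GAS6, chr13:113864027-113864326, minus strand: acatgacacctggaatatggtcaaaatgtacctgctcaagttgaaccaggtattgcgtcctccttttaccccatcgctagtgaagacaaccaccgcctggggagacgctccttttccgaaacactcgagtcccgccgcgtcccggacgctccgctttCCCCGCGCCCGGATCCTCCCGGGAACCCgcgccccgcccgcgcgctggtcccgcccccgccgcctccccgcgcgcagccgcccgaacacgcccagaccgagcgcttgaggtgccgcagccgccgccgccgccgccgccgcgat

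GAS6-AS2, chr13:113863927-113864226, plus strand: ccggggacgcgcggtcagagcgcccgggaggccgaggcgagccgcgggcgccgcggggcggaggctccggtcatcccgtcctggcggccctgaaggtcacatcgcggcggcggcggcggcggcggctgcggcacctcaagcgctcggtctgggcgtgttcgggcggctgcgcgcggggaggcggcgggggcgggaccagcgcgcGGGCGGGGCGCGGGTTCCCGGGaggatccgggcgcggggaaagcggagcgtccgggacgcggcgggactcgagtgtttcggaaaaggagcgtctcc

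The KLF2 promoter, with a GC content of 80.7%, held a motif on its own strand from 250 to 231 bases upstream of the start and another on the opposite strand from 10 to 28 bases downstream. The ASH1L promoter (72.7% GC) held 2 motifs on its own strand and 1 on the other, and the CDKN2A promoter (63.3% GC) held 1 on its own strand. The promoters of GAS6 and GAS6-AS2, which RefSeq lists as GAS6-DT, share 200 bases. In each of them a motif was found on the same physical strand, the one on which GAS6-AS2 is written. Both marked stretches lie in the shared bases and overlap, so that they are parts of 1 tract and not separate sites. No motif of these letters was present in the TSC1 promoter (61.7% GC). Among the paired windows, 189 of 476 matched a RefSeq gene with a promoter on the same chromosome and strand, and 88 of these 189 genes (46.6%) held a motif on either strand of any of their promoters. The share was 51.5% of 439 matched genes of the other windows and 27.9% of the 27326 genes of the whole table. Per promoter of 300 bases, a motif on either strand was found in 35.4% of 291 promoters of the paired windows, 39.2% of 660 of the other windows and 25.0% of all 35116. In both counts the paired windows were below the other windows and above the whole table, which is given without a test. For 57 pairs both genes had a promoter in the table, and 28 of them (49.1%) had a motif in either promoter. A pair offers 2 promoters that can hold a motif, so this share cannot be set against those per gene or per promoter above.

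In 139 pairs the centre of the plus-strand window lay at or above that of the minus-strand window, so that the stretch between the centres is upstream of both centres on the strands of their genes. These are called divergent here. In the other 139 pairs the order was the reverse, the stretch between the centres lies downstream of both, and they are called overlapping. Divergent centres were a median of 373 bp apart (interquartile range 128 to 966 bp), and overlapping centres 693 bp (348 to 1186 bp). Of the divergent pairs, 43.9% had centres within 300 bp of each other, against 23.7% of the overlapping pairs. The closest pair was ZBTB10, a zinc finger gene, with a Y_RNA, at a distance of 0 bp. RP11-744K17.2 and RP11-744K17.7 followed at 2 bp, and 3 pairs of nuclear copies of mitochondrial genes tied at 3 bp. The most distant were AC113407.1 with RP11-475J5.7 (3991 bp), MIR4461 with CTB-36O1.7 (3990 bp) and MTND6P4 with MTND4P12 (3913 bp), again at copies of mitochondrial genes. To check what the centres are, the distances were set against those between transcript starts of the same genes in GENCODE v44 on GRCh38, with no coordinate converted. Both genes were found for 93 pairs, the closest start-to-start distance was equal to the base in 43 of them (46.2%), and it was within 50 bp in 72 (77.4%). Many genes have several GENCODE starts and the closest combination was taken, which favours agreement. With the fewer starts of the RefSeq promoters, the distance was within 50 bp in 18 of 57 pairs. The centres of the other pairs were not matched to starts. The order also depended on the starts used. Centres of MACROD2 and SEL1L2 lay 1074 bp apart in overlapping order, whereas the RefSeq starts taken were divergent by 183 bp. Other pairs changed order too, such as TTC21A with GORASP1 (702 bp overlapping, 53 bp divergent in RefSeq). For both, the closest GENCODE starts were in overlapping order. Divergent and overlapping therefore refer to the window centres only.

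**Figure D1:**
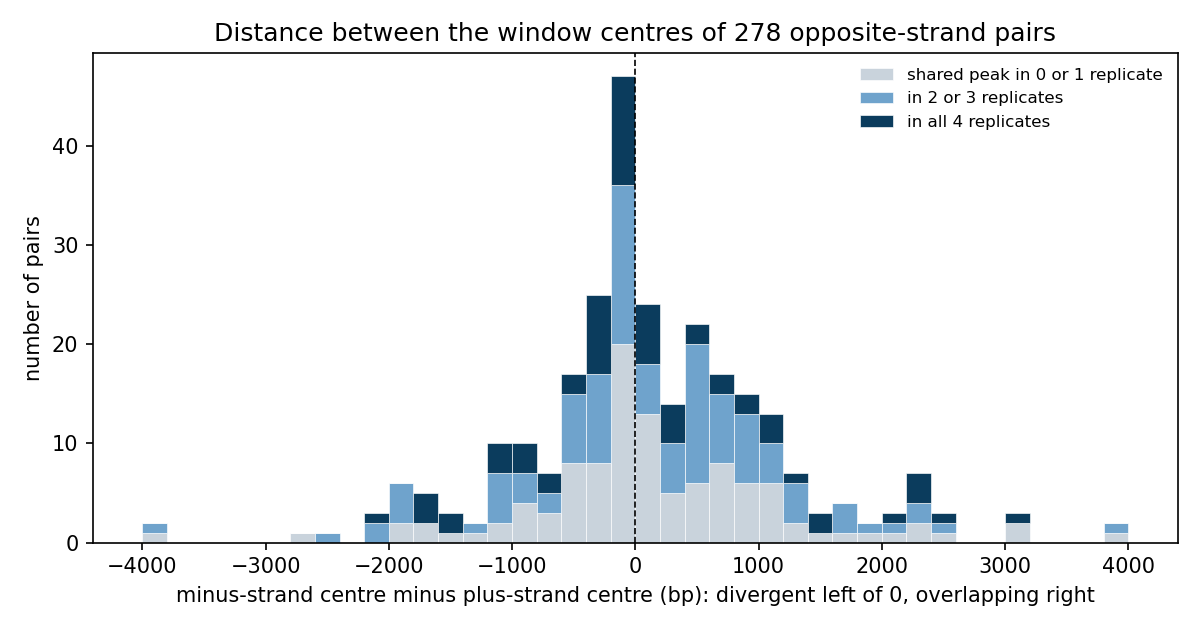
Number of pairs (y axis) by the distance from the plus-strand to the minus-strand window centre in bins of 200 bp (x axis, bp; divergent pairs to the left of 0, with the pair at 0 bp drawn there, overlapping pairs to the right), coloured by the number of replicates with 1 peak in both windows. Of the divergent pairs 61 of 139 lie within 300 bp of 0, against 33 of 139 overlapping pairs, and 63 pairs had a shared peak in all 4 replicates.

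By name, 227 of the 476 windows carried a gene symbol, 170 a clone name such as RP11-744K17.2, 30 a small RNA name, 28 an antisense name ending in -AS and a number, and 21 the name of a nuclear copy of a mitochondrial gene (mitochondrial-like). Symbol-named genes were paired with clone-named transcripts in 111 pairs, with each other in 52 pairs and with antisense-named transcripts in 27 pairs. Antisense pairs were mostly overlapping (20 of 27), whereas pairs of 2 symbol-named genes were evenly split, 26 divergent and 26 overlapping. Pairs were not spread evenly over loci: 171 loci held 1 pair, 25 held 2, and 11 held 3 or more, up to 11 pairs in a locus. In 2 pairs both windows name the same miRNA in different spellings (MIR3180-3 with hsa-mir-3180-3, and MIR1253 with hsa-mir-1253), which the rule counts as different names. The name hsa-mir-3180-3 was also paired with MIR3180-1 and with MIR3180-2. Its centre lay 125 bp from its partner's in all of these pairs.

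At least 1 replicate had a peak in each of the listed windows, so the values below describe how often a window recurred, not whether it held a peak. A replicate counted if any of its peaks overlapped the window, so peaks of different replicates need not lie at the same place. A peak of at least 2 replicates was present in 276 of the 476 paired windows (58.0%, exact 95% binomial interval 53.4 to 62.5%) and in 362 of the 827 other windows (43.8%, 40.4 to 47.2%), a difference of 14.2 percentage points. Over all 1303 windows the share was 49.0%. A peak of all 4 replicates was present in 90 paired windows (18.9%) and 77 other windows (9.31%), with 12.8% over all windows. The intervals cover counting error only, and windows of a pair mostly hold the same peak, so that they are not independent.

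Much of that surplus lay at loci named for copied genes. Of the paired windows, 45 were in loci with a mitochondrial-like name and 71 in loci with a name from a list of multi-copy genes (such as MIR3180, BOLA2, SLX1 and SULT1A copies and clustered histone genes), against 11 and 12 of the other windows. All 45 of the former recurred in 2 or more replicates, and 37 in all 4. In the multi-copy loci 49 of 71 (69.0%) recurred and 27 did so in all 4. Such loci also recurred often among the other windows, with 9 of 11 (81.8%) in mitochondrial-like and 10 of 12 (83.3%) in multi-copy loci, so that high shares were found there with and without a partner window. Of the 360 paired windows in neither kind of locus 182 recurred (50.6%, interval 45.3 to 55.8%), and of the 804 other windows 343 (42.7%, 39.2 to 46.2%), which leaves a difference of 7.89 percentage points. Among symbol-named windows of all loci, a comparison added after the data had been seen, 121 of 227 (53.3%) recurred against 273 of 628 (43.5%). A peak of all 4 replicates was present in 12.3% of these paired windows and 8.92% of these other windows. For windows in neither kind of locus the order turned for all 4 replicates, with 26 of 360 paired windows (7.22%) and 69 of 804 other windows (8.58%). How reads that match several copies were placed is not given in the sources used here, and its part in the recurrence was not tested.

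In each replicate, paired windows held a peak more often than the others. The shares of paired windows with a peak were 65.3%, 50.4%, 59.2% and 35.5% in replicates 1 to 4, and those of the other windows 60.7%, 41.2%, 49.0% and 24.8%. The difference was 8.70 percentage points ± 2.79 (SD, n = 4), higher in 4 of 4 replicates, with a p of 0.125 in a two-sided exact sign-flip permutation test over the replicates, which is the smallest p that 4 replicates allow. Replicate 4, the list with the fewest peaks, had the lowest share in both kinds of windows. Without the mitochondrial-like and multi-copy loci the difference was 1.86 percentage points ± 1.96 (SD, n = 4; exact permutation p = 0.25), and in replicate 1 it was -0.352, so that the difference was smaller than its spread between replicates.

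**Figure D2:**
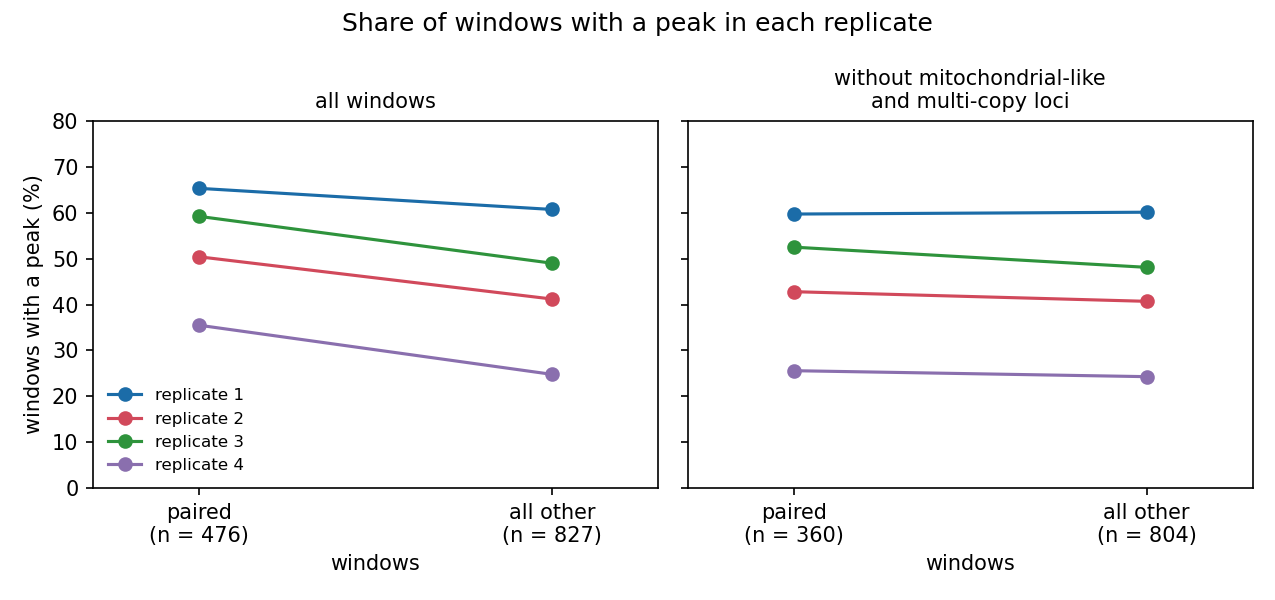
Share of windows with a peak (y axis, percent) in paired and all other windows (x axis), 1 line per replicate, for all windows (left) and without mitochondrial-like and multi-copy loci (right). On the left all 4 lines lie higher for the paired windows, by 4.63 to 10.7 percentage points, and on the right the difference runs from -0.352 in replicate 1 to 4.37 in replicate 3.

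The strength of the peaks differed between the groups by less than the spread between replicates. The median fold enrichment of the strongest peak per window was 6.74, 6.22, 6.83 and 6.04 in paired windows and 6.42, 6.20, 6.46 and 6.07 in the other windows. The mean difference of 0.170 ± 0.205 (SD, n = 4) was positive in 3 of 4 replicates, with an exact permutation p of 0.375. It was -0.0133 without the mitochondrial-like loci and -0.101 without the multi-copy loci as well. Among the paired windows by name, medians over windows ran from 5.23 for antisense-named windows in replicate 4 to 8.57 for small RNA windows in the same replicate.

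Since the windows of a pair were chosen to overlap, and most of each window lies in both, a peak in a pair is likely to be shared from the choice alone. Of the pairs with any peak, 94.8%, 95.5%, 96.6% and 91.4% in replicates 1 to 4 had a peak that overlapped both windows. Between 18.2% and 23.3% of the pairs with a peak had 2 or more peaks. A replicate counted if any of its peaks overlapped both windows, so the shared peaks of different replicates need not lie at the same place. At AC113407.1 with RP11-475J5.6, counted in all 4 replicates, the summit of the strongest shared peak moved by 3720 bp between them. A shared peak was found in at least 2 replicates in 169 of 278 pairs (60.8%), in all 4 in 63 pairs, in 1 replicate only in 104, and in none in 5. Those 5 pairs are GNAO1 with CTD-2050B12.2 and 4 pairs at copies of mitochondrial genes, and their centres lay 1597 to 3990 bp apart. Divergent and overlapping pairs recurred about as often, with a shared peak in at least 2 replicates in 86 (61.9%) and 83 (59.7%) of 139 each. By class the share was 87.8% of 41 pairs in mitochondrial-like loci, 74.1% of 27 pairs with a small RNA, 59.3% of 27 symbol and antisense pairs, 57.7% of 52 symbol and symbol pairs, 52.3% of 111 symbol and clone pairs and 47.4% of 19 clone and clone pairs. The single antisense and clone pair had a shared peak in 1 replicate. In the 190 pairs of neither mitochondrial-like nor multi-copy loci it was 51.6%.

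Summits lay farther from the centre of their own window in paired than in other windows. The median distance of a summit from the centre of its own window was 406, 416, 445 and 484 bp in paired windows and 189, 164, 194 and 189 bp in the other windows. The difference was 254 bp ± 32.2 (SD, n = 4), in the same direction in 4 of 4 replicates (exact permutation p = 0.125, the smallest possible). Without mitochondrial-like and multi-copy loci it was 126 bp ± 32.6. A paired window also holds the summits that lie at its partner's centre. When each summit was measured from the nearest centre of any paired window instead, the medians were 149, 170, 163 and 175 bp, and those of the 728 windows that overlap no other window (lone windows) were 174, 155, 186 and 167 bp. That difference was -6.25 bp ± 20.7 (SD, n = 4; exact permutation p = 0.625). Within 250 bp of the nearest centre lay 63.3% ± 1.68 of the summits of paired windows and 58.5% ± 1.24 of those of lone windows (SD, n = 4), a difference in the same direction in all 4 replicates (exact permutation p = 0.125), but a paired window offers more than 1 centre to be near to.

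Summits gathered between the centres. A summit was counted here once for each pair whose windows held it, so loci with several pairs weigh more. In replicate 1 this gave 138 counts in divergent and 145 in overlapping pairs, from 154 distinct summits. In divergent pairs 49.3%, 46.5%, 41.7% and 45.7% of the summits in either window lay between the centres, a mean of 45.8% ± 3.15 (SD, n = 4), whereas the stretch between the centres made up 14.1% of the bases. In overlapping pairs the values were 44.8%, 46.4%, 46.2% and 46.0%, with a mean of 45.9% ± 0.713 and 18.6% of the bases. The arrangements differed by -0.0724 percentage points ± 3.68 (divergent minus overlapping; exact permutation p = 0.875). Among pairs with centres 100 to 1000 bp apart the values moved apart, to 48.8% ± 3.70 in 82 divergent and 35.4% ± 5.66 in 83 overlapping pairs, with 8.96% and 11.3% of the bases. There divergent pairs were higher in 4 of 4 replicates, by 13.3 percentage points ± 6.74 (exact permutation p = 0.125). With only the closest pair of each locus kept, the order was the reverse, at 39.5% in divergent and 55.0% in overlapping pairs, which was not tested. Summits cluster at centres in all windows, so a surplus over the share of bases does not by itself mark the stretch between them.

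**Figure D3:**
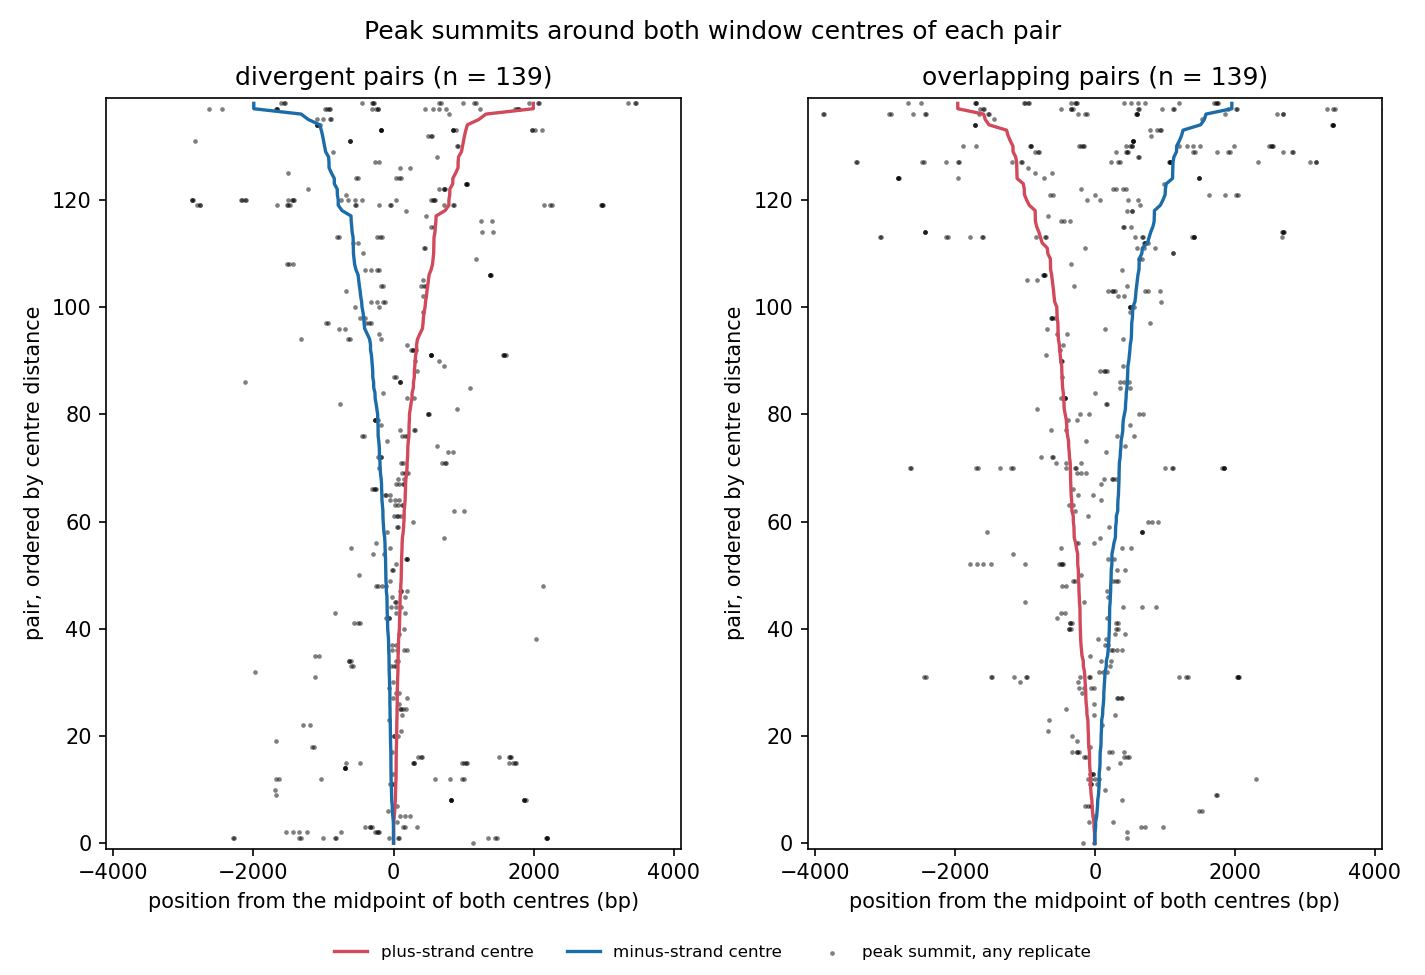
Position of each peak summit (black points, any of the 4 replicates) relative to the midpoint of both window centres (x axis, bp) in 139 divergent (left) and 139 overlapping pairs (right), 1 pair per row of the y axis ordered by centre distance; the red and blue lines are the plus- and minus-strand centres. Summits follow the lines, and 45.8% of them on the left and 45.9% on the right lie between the lines.

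For that reason the side on which a summit lay was also scored, a measure chosen after the data had been seen. Only summits closer to the nearest centre than the midpoint between both is were scored, again once for each pair that held them. In divergent pairs 73.9%, 69.1%, 68.5% and 75.5% of them lay on the partner's side (mean 71.8% ± 3.48, SD, n = 4). That side is upstream of the centre on the strand of its gene. In overlapping pairs the partner's side is downstream, and 60.2%, 61.2%, 61.6% and 64.5% lay there (mean 61.9% ± 1.86). The stretch between close centres collects summits that belong to either centre, so that a share above 50% does not show a preference for a side, and the shares are given without a test against 50%. The divergent pairs were higher than the overlapping ones in 4 of 4 replicates, by 9.89 percentage points ± 3.10 (exact permutation p = 0.125), but their centres also lay closer together. In lone windows 51.9% ± 1.86 of all summits and 58.5% ± 2.62 of those within 500 bp of the centre lay upstream (SD, n = 4). Once centres are more than 1333 bp apart, a summit on the outer side can fall outside the partner's window, and since every listed window held a peak this favours inner summits. Among pairs 100 to 1000 bp apart, where this does not arise, the inner share was 66.9% ± 5.71 in divergent pairs and 54.8% ± 3.37 in overlapping pairs. By distance, the pooled share in divergent pairs was 60.4% of 48 summits at 100 to 300 bp, 73.2% of 56 at 300 to 600 bp and 69.4% of 36 at 600 to 1000 bp. The same bins of the overlapping pairs gave 62.1% of 29, 34.0% of 50 and 68.9% of 61, without an order. Summits of different replicates at 1 locus count separately in these pooled shares.

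**Figure D4:**
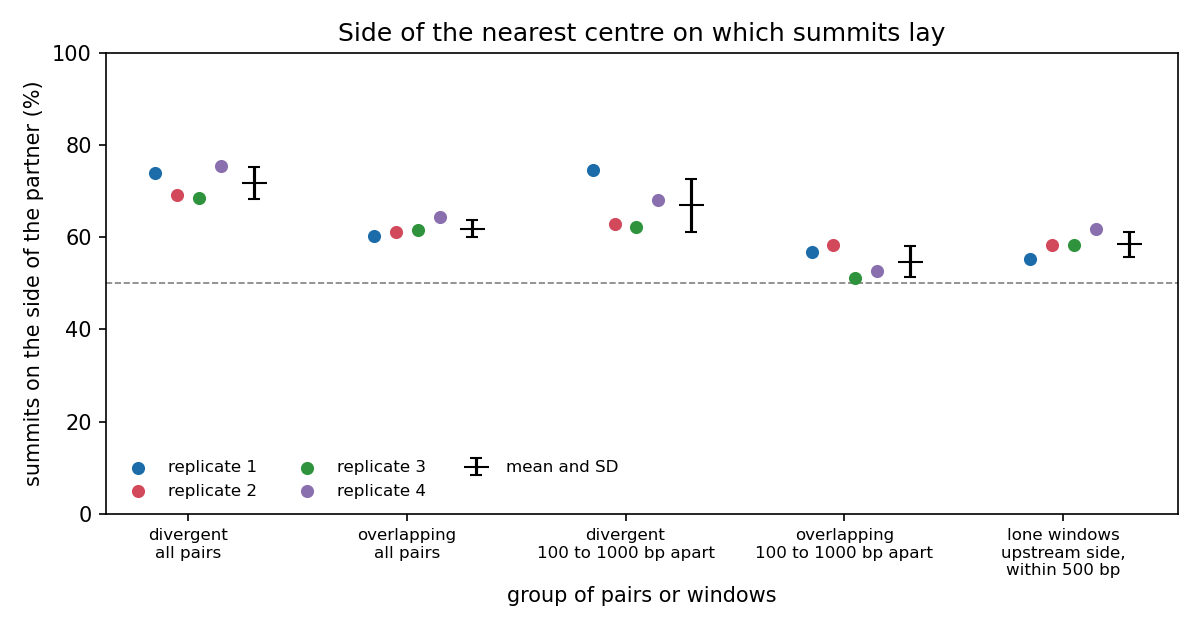
Share of summits on the partner's side of their nearest centre (y axis, percent), in divergent and overlapping pairs, for all pairs and for centres 100 to 1000 bp apart, beside the upstream share of summits within 500 bp of the centre in lone windows (x axis); points are replicates, the black mark is the mean with its SD (n = 4), and the dashed line at 50% is for orientation only. Divergent pairs sit at 68.5 to 75.5% with all pairs, overlapping pairs at 60.2 to 64.5%, and lone windows at 55.4 to 61.8%.

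Where a symbol-named gene was paired with a clone-named or antisense-named transcript and the centres were at least 500 bp apart (72 pairs), 59.6%, 62.5%, 66.7% and 75.0% of the summits lay nearer to the centre of the symbol-named gene, in 52, 32, 39 and 20 summits. The mean was 65.9% ± 6.69 (SD, n = 4), above 50% in all 4 replicates (exact permutation p = 0.125). With clone-named partners (56 pairs) it was 65.6% ± 9.39, and with antisense-named partners (16 pairs, 4 to 10 summits per replicate) 68.8% ± 12.5. The share was 68.5% ± 5.40 for centres at least 200 bp apart and 55.4% ± 2.81 for centres at least 1000 bp apart. Here too a summit was counted once for each pair that held it.

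Of the 278 pairs, 41 were named for the known biology of their genes, and 20 of these (48.8%) had a shared peak in at least 2 replicates, against 60.8% of all pairs. None of the 41 was in a mitochondrial-like locus. Without such loci the share of all pairs was 56.1%, and without multi-copy loci as well 51.6%. Shared peaks of the 41 pairs had fold enrichments of 4.04 to 13.6 with a median of 6.14, and those of all pairs 3.71 to 24.7 with a median of 6.75. In 21 of the 41 pairs the shared peak was found in a single replicate: 6 in replicate 1, 7 each in replicates 2 and 3, and 1 in replicate 4.

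KLF2, a zinc finger transcription factor of endothelial and immune cells, was paired with the clone-named CTD-2562J15.6 on the opposite strand, with centres 303 bp apart in divergent order (windows chr19:16433628-16437628 and chr19:16433325-16437325). The shared peak had fold enrichments of 8.39, 7.47, 9.31 and 6.04 in replicates 1 to 4, a mean of 7.81 ± 1.39 (SD, n = 4), lowest in replicate 4. Its summit lay 43, 96, 86 and 141 bp upstream of the KLF2 centre, between the centres in all 4 replicates. On GRCh38 both motifs of the printed KLF2 promoter lie outside that range, one farther upstream and one downstream of the start, but the windows are on GRCh37 and the KLF2 centre was not matched to the RefSeq start.

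TSC1 encodes hamartin, a brake on mTORC1 signalling, and was paired with GFI1B, a repressor of transcription in blood cells, 912 bp apart (chr9:135818020-135822020 and chr9:135818932-135822932), and with the miRNA gene MIR548AW, 1074 bp apart. The same peak served both divergent pairs, with fold enrichments of 8.39, 6.02, 8.01 and 5.86 (mean 7.07 ± 1.31, SD, n = 4). The summits lay 331, 304, 214 and 132 bp upstream of the TSC1 centre and 581 to 780 bp upstream of that of GFI1B, hence between the centres and nearer to TSC1 in all 4 replicates. The distance of GFI1B and TSC1 was 910 bp between GENCODE starts, and the TSC1 promoter printed above, which ends 250 bases upstream of its start, holds no motif of these letters.

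UBE2L3, a ubiquitin-conjugating enzyme, and RIMBP3C, a member of a duplicated family, formed the third of the 41 pairs with a shared peak in all 4 replicates. Their centres lay 2014 bp apart in overlapping order, and the fold enrichments were 5.47, 13.6, 4.66 and 7.23, so that replicate 2 was well above the rest.

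Of the 41 pairs, 8 had a shared peak in 3 replicates. CDKN2A, a gene of cell cycle inhibitors, was paired with CDKN2B-AS1 (523 bp, overlapping) and with the clone-named RP11-149I2.4 (181 bp, divergent). RefSeq lists 2 starts for CDKN2A, and which of its products begins at this centre was not examined. The fold enrichments were 5.01, 6.02 and 7.04 in replicates 1 to 3, with no peak in replicate 4. The summits of replicates 1 and 2 lay 128 and 255 bp upstream of the CDKN2A centre, and that of replicate 3 lay 747 bp downstream of it, so that the replicates did not mark the same place. C5orf38 and the homeobox gene IRX2 (724 bp, overlapping) had fold enrichments of 10.6, 6.75 and 7.07 in the same replicates. All 3 summits were 231 to 399 bp upstream of C5orf38 and none was between the centres. Here too the order of the centres was not that of annotated starts, which are divergent, by 454 bp in GENCODE and 216 bp in RefSeq. PTPN13, a tyrosine phosphatase, and MAPK10, the kinase JNK3, are a divergent pair with centres 184 bp apart. The closest of their many GENCODE starts have that distance, whereas their RefSeq starts lie 223448 bp apart. Their peak had fold enrichments of 8.51, 6.14 and 5.98 in replicates 1 to 3. The summits of replicates 1 and 3 lay between the centres, and that of replicate 2 lay 13 bp downstream of the PTPN13 centre.

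TNKS2, the poly-ADP-ribose polymerase tankyrase 2, and TNKS2-AS1 lay 21 bp apart and had fold enrichments of 5.99, 5.63 and 5.12 in replicates 1, 2 and 4, with all 3 summits 75 to 227 bp downstream of the TNKS2 centre. TTC21A, a ciliary transport gene, and GORASP1, a Golgi stacking protein, had 4.76, 8.68 and 5.27 in replicates 2, 3 and 4. BOLA2B with SLX1A, SLX1A-SULT1A3 and SULT1A3, copies in a duplicated stretch of chromosome 16, had 7.19, 10.1 and 8.28 in replicates 1 to 3.

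ASH1L, a histone H3 lysine 36 methyltransferase, and ASH1L-AS1 had a shared peak with 4.34 in replicate 1 and 7.92 in replicate 2, whose summits lay 78 bp downstream and 170 bp upstream of the ASH1L centre. Another 8 of the 41 pairs had a shared peak in 2 replicates, namely UCK2 and TMCO1, LACC1 and CCDC122, LOXL1 and LOXL1-AS1, THRB-AS1 and THRB, ALPK1 and TIFA, PDGFA and AC147651.3, JAZF1-AS1 and JAZF1, and RPL7A and MED22. GAS6, a ligand of the TAM receptor tyrosine kinases, and GAS6-AS2 had 5.52 in replicate 2 alone, with the summit 11 bp downstream of the GAS6 centre. MRPS11 and MRPL46, subunits of the mitochondrial ribosome whose centres lie 34 bp apart, had 8.47 in replicate 3 alone. IKBKB, which encodes the kinase IKK-beta of NF-kappaB signalling, lay 105 bp from the clone-named RP11-231D20.2 and had 4.79 in replicate 3 alone. ZNF568 and ZNF829, zinc finger genes 38 bp apart, had 5.85 in replicate 4 alone. GATA6, FOXP1, BCL6 and ISL1, transcription factors of development and of lymphocytes, with partners GATA6-AS1, RP11-154H23.3, RP11-211G3.2 and CTD-2314G24.2, each had a shared peak in replicate 2 alone, at 5.11, 5.60, 4.28 and 6.75.

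The pairs with a shared peak in all 4 replicates are few once loci named for copies are set aside. Copies were recognised by gene name alone, so a copied locus without such a name is not set aside. Of the 63 such pairs, in 29 loci, 28 were in mitochondrial-like loci, 21 in multi-copy loci and 14, in 12 loci, in neither. By mean fold enrichment, the highest were the copies of MIR3180 on chromosome 16: RP11-958N24.1 with MIR3180-1 (22.7, 24.1, 16.6 and 19.4), PKD1P1 with MIR3180-2 (24.7, 17.1, 20.7 and 16.7) and MIR3180-3 with PKD1P5 (23.7, 13.4, 15.8 and 9.40). Replicate 4 was the lowest at MIR3180-2 and MIR3180-3 but not at MIR3180-1. Divergent loci next in order were MTND6P4 with CTB-36O1.7 (mean 10.6 ± 2.04), and OR2A9P with ARHGEF35 (9.89 ± 2.96). In overlapping order the same MIR3180 loci came first, each with hsa-mir-3180-3 as partner. They were followed by ARHGEF5 with OR2A1-AS1 (14.0 ± 2.96) and RP4-800G7.2 with SNORD112 (12.9 ± 2.32, SD, n = 4 throughout).

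The 14 pairs in neither kind of locus, which are all such pairs and were named after their values were seen, had means of 6.80 to 12.9. Their summits were steady: the strongest shared peak moved by a median of 97.5 bp between replicates, from 28 bp at RP4-800G7.2 and SNORD112 to 207 bp at FAM111A and its partners. In 7 of the 14 all 4 summits lay between the centres and in 4 none did.

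MACROD2, an ADP-ribose hydrolase gene, and SEL1L2 had fold enrichments of 20.1, 10.5, 9.53 and 8.41, with all summits 34 to 90 bp upstream of MACROD2 and outside the stretch between the centres. TMEM125 and EBNA1BP2, a ribosome assembly factor, have centres 942 bp apart in overlapping order and had 7.30, 8.59, 10.6 and 8.06, with all 4 summits between the centres, 303 to 401 bp downstream of the EBNA1BP2 centre. FKBP4, a co-chaperone of steroid receptors, and the pseudogene CBX3P4 (658 bp, divergent) had 7.69, 11.4, 8.22 and 5.12, and the summits lay 5 to 82 bp upstream of FKBP4, all between the centres and far nearer to FKBP4. ESRP1, a splicing regulator of epithelial cells, and RP11-22C11.2 (1607 bp, divergent) had 9.58, 6.40, 10.6 and 5.37, with the strongest summits 67 to 160 bp upstream of ESRP1.

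ZFP28, a zinc finger gene, with AC005498.3 (373 bp, divergent) had 7.85, 10.6, 6.43 and 5.09, with summits from 66 bp upstream to 20 bp downstream of ZFP28. ZNF470, another zinc finger gene, with AC007228.11 (100 bp, divergent) had 6.99, 7.61, 7.49 and 5.12, with all 4 summits 36 to 133 bp downstream of ZNF470 and none between the centres. Replicate 4 had the lowest value in 10 of the 14 pairs. These lie in 12 loci, and pairs of the same locus hold the same peak, which then counts more than once.

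**Figure D5:**
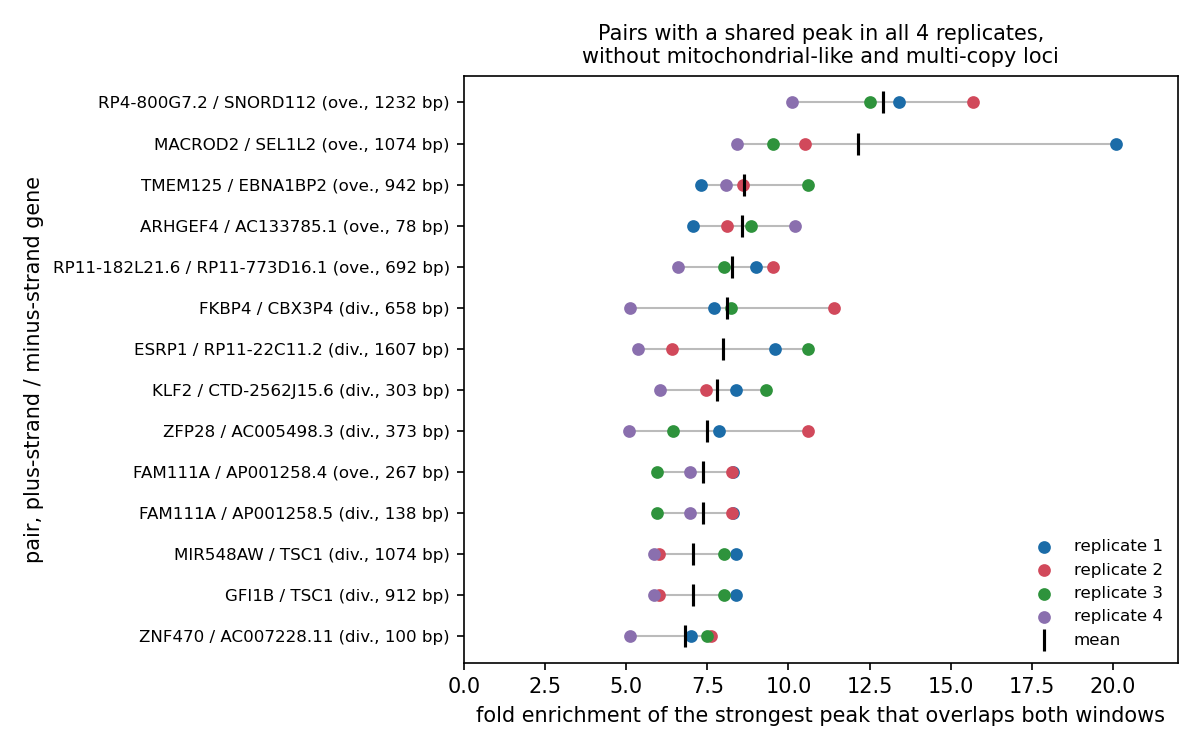
Fold enrichment of the strongest peak that overlaps both windows (x axis) for the 14 pairs with such a peak in all 4 replicates outside mitochondrial-like and multi-copy loci (y axis, with arrangement and centre distance); points are replicates and the black bar is their mean. Means run from 6.80 at ZNF470 to 12.9 at RP4-800G7.2, and replicate 1 of MACROD2, at 20.1, stands to the right of all other points.

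Some pairs named for copies of mitochondrial genes in the nuclear genome had nearly the same centre distance. At 3 bp apart stood MIR4461 with MTND4P12, AC113407.1 with RP11-475J5.6, and MTND4P24 with AL359973.1, on chromosomes 5, 5 and X, and at 70 to 76 bp stood MTND6P4 with CTB-36O1.7, MTND6P16 with RP11-63H19.2, RP11-475J5.11 with RP11-475J5.7, and RP11-461G12.2 with MTND6P3. Of the 41 pairs in such loci 28 had a shared peak in all 4 replicates. The SD of their fold enrichments over the replicates ran from 0.257 at MTND6P16 with RP11-63H19.2 (7.23, 7.84, 7.61 and 7.44) to 2.04 at MTND6P4 with CTB-36O1.7 (11.3, 11.3, 12.3 and 7.67). Several of these pairs hold the same peaks, so that their values are not independent of each other.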

How the data were processed

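Peak lists of 4 BG4 samples were analysed. According to the methods and the submitters' processing notes, the authors aligned the reads with Bowtie2 2.2.5, called peaks per replicate with MACS2 2.1.1 and annotated them with ChIPseeker; the options, duplicate handling and use of the input are not given in the sources used here. The deposited fold enrichment is the ratio computed by the authors' peak caller at the summit over its local background. The deposited −log10 p and −log10 q values were written by the authors' peak caller. The deposited score, 10 times the −log10 of q as a whole number, was written by the authors' software and not used. Positions are on hg19 (GRCh37), the build in the processing notes, and peaks lie beyond the end of chromosome 1 in hg38. No genome of that build was used here, so no annotation was laid under the peaks.

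A peak counted for a window with an overlap of at least 1 bp. Differences within replicates were tested by two-sided exact sign-flip permutation over the 4 replicates, whose smallest p is 0.125. No test was made over windows. Some steps were tested on simulated peaks over 207 pairs, 1 per locus, and 728 lone windows, and 7 of 7 measures were recovered. Some of these checked only the permutation p, and not every measure reported above was among them. Members and lists were chosen with earlier results of these data known. Named were pairs with known biology, the 5 loci per arrangement whose shared peaks were strongest on average over all 4 replicates, and the 3 closest and most distant pairs. Python 3.11.15, pandas 2.3.3 and scipy 1.17.1 were used.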

Additional observations from a re-analysis of the deposited data

Results flagged for a closer look

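Of 46 sets of 4 replicate values that were examined, 11 of them summaries and 35 of them pairs with a shared peak in all 4 replicates, 1 had a replicate far from the other 3. At ARHGEF5 and OR2A1-AS1, in a multi-copy locus, the fold enrichment was 9.63 in replicate 4 and 16.2, 15.1 and 15.1 in replicates 1 to 3, so that the gap to the nearest other replicate took up 0.833 of the whole range, above the 95% critical value of Dixon for sets of 4. Chance alone gives such a gap in about 1 set in 20.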

How the results depend on the processing

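Across 10 results and 120 alternatives, 95 values stayed on their side of 0 or 50% or within the spread of the main value, 22 moved beyond it and 3 changed direction. Differences within replicates and shares set against 50% were judged by side alone, so a much smaller difference still counts as stayed. An example is the share of windows with a peak per replicate, whose difference fell from 8.70 to 1.86 percentage points. For the other results the spread was a binomial interval or the SD over replicates. The 3 that changed direction belong to the median fold enrichment, whose difference of 0.170 became -0.0133 without mitochondrial-like loci, -0.101 without multi-copy loci as well, and -0.0479 with 1 window per locus. The surplus of recurrent paired windows, 14.2 percentage points, was 6.79 with the 3000 strongest peaks per replicate, 7.89 without mitochondrial-like and multi-copy loci, 9.49 with 1 window per locus and 9.60 for all 4 replicates. The share of divergent summits between the centres was 41.1% with the 3000 strongest peaks, 54.4% without mitochondrial-like loci, the same 54.4% without multi-copy loci as well, and 39.5% with 1 pair per locus. For overlapping pairs it was 49.6%, 49.0% and 55.0% under the last 3 of these settings and 35.4% for centres 100 to 1000 bp apart. Which arrangement had the higher share thus depended on the setting. The share of pairs with a shared peak in at least 2 replicates, 60.8%, was 48.6% at a −log10 q of at least 4, 21.9% with the 3000 strongest peaks, 51.6% without both kinds of loci, 53.6% with 1 pair per locus, 36.7% for at least 3 replicates and 22.7% for all 4. Leaving out a replicate in turn gave 42.1% to 54.3% for that share, lowest without replicate 1, and 10.1 to 16.2 percentage points for the surplus of recurrent windows. Fewer peaks or replicates lower such shares by construction, and the cause of the other shifts was not tested. The difference in the share of windows with a peak per replicate stayed positive at 1.86 to 10.5 percentage points, and that in the distance of summits from their own centre at 126 to 310 bp. The share nearer to the symbol-named gene stayed above 50% in every alternative run, and the shares on the partner's side did too, for which 50% is not the value without a preference. No paired analysis was possible because all samples with peaks belong to 1 group, so that no groups of samples could be paired, and windows were compared within each replicate instead. Depth is unknown, and with 4 replicates no test could go below 0.125.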
